A study of Mus musculus with 6 samples.

Results

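SMAD1/5 binding around Id2, Id3 and Id4 was examined in peak lists from mouse pluripotent cells. A peak belonged to a locus when it overlapped a fixed 200-kb window of the mm9 build. The Id2 window was chromosome 12 from 25680000 to 25880000, the Id3 window chromosome 4 from 135600000 to 135800000, and the Id4 window chromosome 13 from 48255000 to 48455000. These windows held 41 of the 24441 peaks in the 4 lists. They were drawn around the genes by position, without use of peak scores. No mm9 gene annotation was used here, so a peak is placed by its distance from the centre of its window and not by promoter, exon or intron.

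Id2, Id3 and Id4 encode inhibitor of DNA binding proteins. These are helix-loop-helix proteins that lack the basic region needed to contact DNA. They pair with basic helix-loop-helix factors such as the E proteins and keep them off their sites, which in many tissues delays differentiation. Id genes are known direct targets of bone morphogenetic protein (BMP) signalling. BMP receptors phosphorylate SMAD1 and SMAD5, which enter the nucleus with SMAD4 and bind GC-rich elements and the short SMAD element GTCT. In mouse embryonic stem cells, Id induction by BMP is known to act alongside leukaemia inhibitory factor (LIF) in self-renewal.

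The cells were mouse embryonic stem cells (ESCs) of the E14 line, in the naive pluripotent state, and epiblast stem cells made from ESCs in culture (ESD-EpiSCs), in the primed state. The 4 immunoprecipitated libraries were ESD-EpiSCs treated with 10 ng/ml BMP-4 for 24 h, ESD-EpiSCs treated with 10 ng/ml BMP-4 for 1.5 h, ESCs kept in LIF and 10 ng/ml BMP-4 in basal medium, and ESCs kept in LIF and serum. ESD-EpiSCs were maintained in N2B27 medium with FGF2 and Activin A. All 4 were precipitated with 1 anti-Smad1 antibody, and the lists hold no measure by which the cell types could be checked against their markers. A peak call does not tell SMAD1 from SMAD5. With 1 library per condition, replicate error could not be estimated, and no test between conditions was run. Cell state, medium, duration of BMP-4 and library cannot be told apart. The lists give peaks and not reads. The depth is therefore unknown, and a site missing from a list is a site not called, not a site shown to be unbound. The deposited score of each peak was used to rank peaks within a list, with rank 1 for the highest score. A percentile is the share of a list that scored no higher than that peak. A cut at a score of 100 was also applied to each list and set beside the share of that list. As depth and control are unknown, this cut need not mean the same in every list.

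The promoter sequences of the 3 genes are given below, with matches to short SMAD-type strings marked. They come from RefSeq on GRCm38.p6, a later build than that of the peaks. Their positions cannot be set against the peak positions, even where the numbers look alike, as on chromosome 13. Each line gives the 250 bases before the start in the direction of the gene. Capitals mark GGCGCC elements, GGAGCC elements and the short GTCT, searched on both strands, GGCGCC being its own reverse complement and GGCTCC and AGAC those of the others. The Id2 promoter is chr12:25096093-25096342 on the minus strand, the Id3 promoter chr4:136143572-136143821 on the plus strand, and the Id4 promoter chr13:48260866-48261115 on the plus strand.
Id2: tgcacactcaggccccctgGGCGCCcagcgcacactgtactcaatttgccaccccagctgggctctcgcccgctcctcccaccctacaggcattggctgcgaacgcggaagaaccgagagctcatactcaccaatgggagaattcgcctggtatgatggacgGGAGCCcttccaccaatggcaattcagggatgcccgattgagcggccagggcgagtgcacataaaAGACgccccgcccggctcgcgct
Id3: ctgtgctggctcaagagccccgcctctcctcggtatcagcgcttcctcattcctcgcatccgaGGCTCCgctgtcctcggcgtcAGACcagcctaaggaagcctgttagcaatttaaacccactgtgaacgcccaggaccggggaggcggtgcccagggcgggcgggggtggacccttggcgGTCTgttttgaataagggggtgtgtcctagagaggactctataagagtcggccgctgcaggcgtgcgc
Id4: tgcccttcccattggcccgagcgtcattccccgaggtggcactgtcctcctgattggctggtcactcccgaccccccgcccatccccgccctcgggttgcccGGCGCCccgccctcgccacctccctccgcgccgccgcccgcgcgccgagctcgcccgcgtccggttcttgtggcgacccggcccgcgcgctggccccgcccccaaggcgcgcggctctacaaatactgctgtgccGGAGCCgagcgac

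All 3 promoters held 1 GGAGCC element. The Id2 and Id4 promoters also held 1 GGCGCC each and the Id3 promoter none. GTCT occurred once before Id2, at 2 places before Id3 and nowhere in the 250 bases before Id4. Over 32851 promoters of the same length, 9.59% held GGCGCC, 26.0% held GGAGCC and 82.9% held GTCT. The 3 promoters were GC-rich, with 62.8% G and C before Id2, 62.8% before Id3 and 75.6% before Id4, against a median of 52.4% over all promoters. GC-rich sequence holds more GC-rich words, and whether base composition accounts for these matches was not tested. A match is a string of letters and not a measured site.

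The Id windows carried peaks in both cell states. In ESD-EpiSCs, Id3 had 2 peaks at 24 h and 3 at 1.5 h, Id4 had 1 at each time, and Id2 had 0 at 24 h and 3 at 1.5 h. In ESCs, each window had 5 LIF+BMP-4 peaks, beside 5 LIF+serum peaks for Id2 and for Id3 and 6 for Id4. In the central 100 kb, Id4 kept 1 LIF+BMP-4 peak and 3 LIF+serum peaks, while Id2 kept 5 and Id3 4 in each medium. The sums over the windows were 3 peaks at 24 h, 7 at 1.5 h, 15 for LIF+BMP-4 and 16 for LIF+serum. These sums stood in lists of very unequal length, of 133 peaks at 24 h, 225 at 1.5 h, 14696 for LIF+BMP-4 and 9387 for LIF+serum. Each list was then reduced to its 133 highest-scoring peaks. The order of the sums by cell state reversed, to 3 at 24 h, 5 at 1.5 h, 0 for LIF+BMP-4 and 1 for LIF+serum. The cut kept the whole 24 h list and only the top of the longer lists. The highest LIF+BMP-4 peak of the windows ranked 452, so its sum of 0 follows from the ranks. No background share was computed under this cut, so the reversal is not a result about cell state.

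Windows of this length were usually empty in these lists. Of 13175 fixed tiles of 200 kb, 0.865% held a peak at 24 h, 1.43% a peak at 1.5 h, 44.4% a peak in LIF+BMP-4 and 34.6% a peak in LIF+serum. A tile with a peak at both ESD-EpiSC times, as found for Id3 and Id4, made up 0.175% of tiles. At least 3 peaks at 1.5 h, as found for Id2 and Id3, occurred in 0.0683% of tiles, or 9 tiles. The tiles that hold the Id peaks themselves are included in these shares. The ESC counts of the Id genes were met more often: at least 5 peaks were held by 6.12% of tiles in LIF+BMP-4 and by 2.71% in LIF+serum. Tiles over unsequenced ends count as empty and lower these shares. The windows were centred on known BMP targets and the tiles were not, so these shares are a background and not a test.

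**Figure D1:**
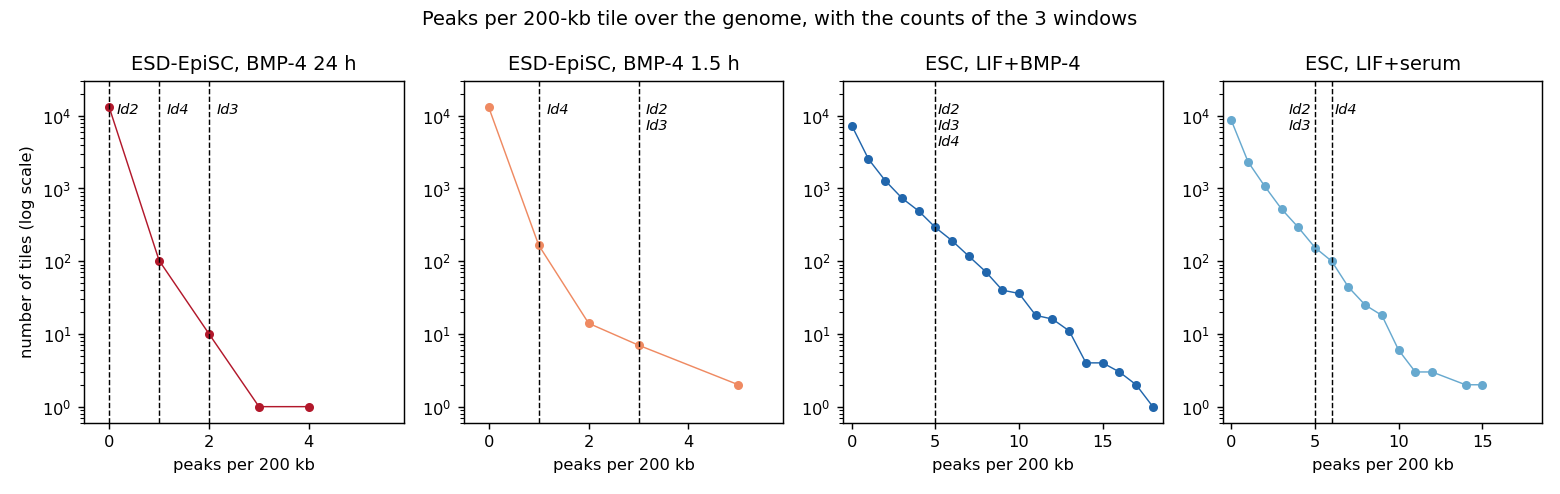
Number of 200-kb tiles (log scale) by the number of peaks they held, 1 panel per peak list. Dashed lines mark the counts of the Id2, Id3 and Id4 windows. Most tiles held 0 peaks in every list, whereas all 3 ESC counts per list were 5 or 6 and the 1.5 h counts were 1 or 3.

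**Figure D2:**
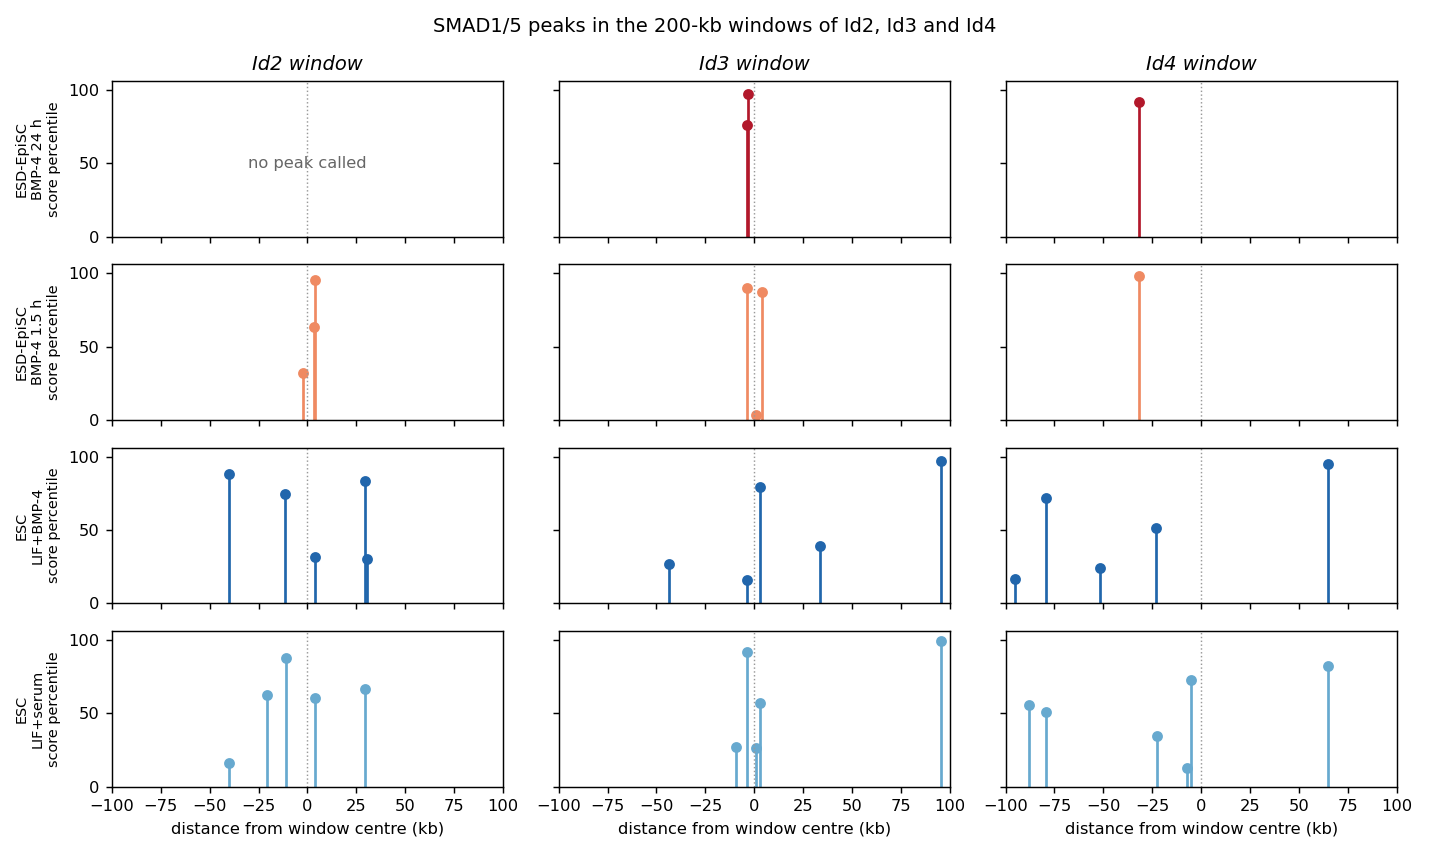
Peaks by distance of their midpoint from the window centre (kb), with height giving the score percentile within the list, 1 column per gene and 1 row per list. ESD-EpiSC peaks lay within 4 kb of the centre for Id2 and Id3 and about 32 kb from it for Id4, while ESC peaks were spread over each window.

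The Id3 window held a site called in both cell states. This site, at -3.53 kb from the window centre, was called in all 4 lists and is 1 of 7 such regions among 18623 merged regions of the series. Such a region must hold a peak of the 24 h list, which has 133 peaks, 17 of them overlapping a 1.5 h peak. The number of such regions is thus limited by the length of the ESD-EpiSC lists. At 24 h the Id3 site was called as 2 peaks separated by 13 bp. The first, at 135696387 to 135696458, was 72 bp wide with a score of 72.75 (rank 33 of 133). The second, at 135696472 to 135696691, was 220 bp wide with a score of 131.67 (rank 5). At 1.5 h there was a single peak at 135696340 to 135696542, with a score of 142.14 (rank 24 of 225). It lay wholly inside the ESC peaks of both media, with its midpoint 24 bp from that of the LIF+BMP-4 peak and 33.5 bp from that of the LIF+serum peak.

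The same Id3 site stood at very different heights in the ESC lists. The LIF+BMP-4 peak, at 135696239 to 135696691, scored 55.59 and ranked 12355 of 14696, at percentile 15.9. The LIF+serum peak, at 135695966 to 135696983, scored 158.54 and ranked 746 of 9387, at percentile 92.1. The midpoints of these ESC peaks were 9.5 bp apart, the closest of any ESC pair in the 3 windows. In the other direction, the peak nearest above the centre that both media shared ranked higher in LIF+BMP-4. It lay at 135702602 to 135703320 in LIF+BMP-4 (score 119.13, percentile 79.2) and at 135702557 to 135703333 in LIF+serum (score 76.08, percentile 57.4).

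The 1.5 h list held further Id3 peaks that the 24 h list did not, as for most of that list, where 7.11% overlapped a 24 h peak. A peak at 135700629 to 135700729, 0.68 kb from the window centre, scored 50.24 (rank 218 of 225), close to the lowest score in the list. It fell inside a LIF+serum peak at 135700155 to 135701225 that also ranked low (score 58.59, percentile 26.4), with midpoints 11 bp apart, and no LIF+BMP-4 peak was called there. A stronger 1.5 h peak at 135703842 to 135704010 scored 135.14 (rank 29). It met no ESC peak, and the nearest ended 508 bp away in LIF+serum and 521 bp away in LIF+BMP-4. Of the peaks at 1.5 h near Id3, 2 of 3 thus overlapped an ESC peak, beside 34.7% of the whole 1.5 h list. The remaining one lay near an ESC peak.

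The highest ESC peak in the Id3 window was also the farthest from its centre. It lay at 135795207 to 135796026 in LIF+BMP-4 (score 260.56, rank 452) and at 135795031 to 135795959 in LIF+serum (score 362.71, rank 75), more than 95 kb above the centre and near the edge of the window. No ESD-EpiSC peak was called within 90 kb of it. In the RefSeq gene table the protein-coding neighbours of Id3 are Rpl11 and E2f2, and distance alone does not assign this peak to Id3. Peaks of lower rank completed the window. LIF+BMP-4 had single peaks at 135656026 to 135656441 (percentile 26.8) and at 135733117 to 135733573 (percentile 39.1), and LIF+serum had one at 135690216 to 135691166 (percentile 27.4).

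**Figure D3:**
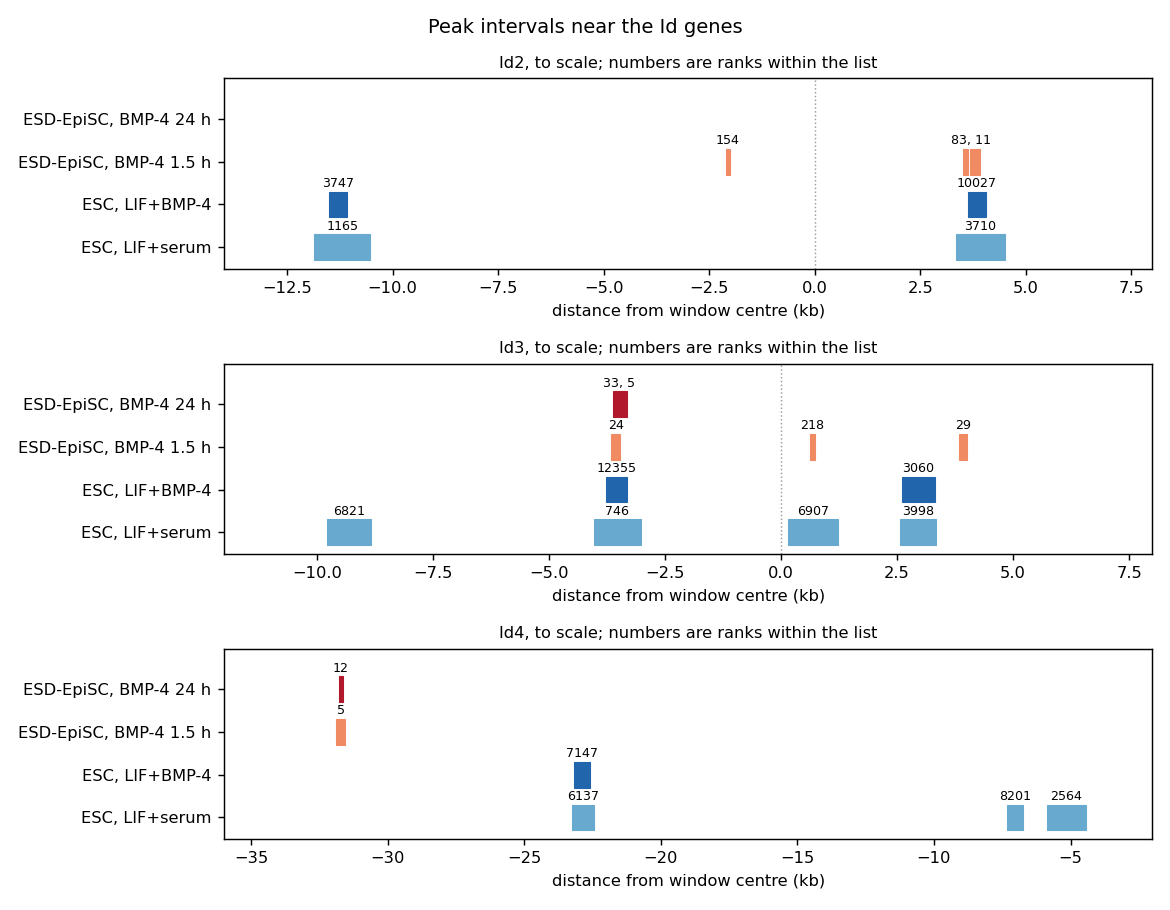
Peak intervals drawn to scale against distance from the window centre (kb), 1 panel per gene and 1 row per list, with the rank of each peak within its list above it. The Id3 site near -3.53 kb had a peak in every row, the Id2 site near 3.8 kb had one in all rows but 24 h, and the Id4 site near -31.7 kb had one only in the ESD-EpiSC rows.

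At Id2, ESD-EpiSC peaks were called at 1.5 h and not at 24 h. Over the whole 1.5 h list, only 7.11% of peaks overlapped a 24 h peak. Of the 3 Id2 peaks at 1.5 h, 2 fell on 1 ESC site, beside 34.7% of the list that met an ESC peak. That site lay 3.8 kb above the window centre. At 1.5 h it carried a peak at 25783523 to 25783640 (score 71.17, rank 83 of 225) and, 27 bp further on, a peak at 25783668 to 25783926 (score 207.46, rank 11). The stronger 1.5 h peak was fully covered by the ESC peak of either medium. Its midpoint was 46.5 bp from that of the LIF+BMP-4 peak and 126.5 bp from that of the LIF+serum peak. The weaker one was covered by the LIF+serum peak and overlapped the LIF+BMP-4 peak by 22 bp.

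This site was not among the leading Id2 sites in ESCs. Its LIF+BMP-4 peak, at 25783619 to 25784068, scored 63.1 and ranked 4 of the 5 in the window (percentile 31.8). Its LIF+serum peak, at 25783347 to 25784500, scored 78.77 and also ranked 4 of 5 (percentile 60.5). The ESC sites with higher ranks, 11 to 40 kb from the centre, had no ESD-EpiSC peak. The remaining 1.5 h peak, at 25777889 to 25777982, was narrow (94 bp) with a score of 56.03 (rank 154). It was the Id2 peak nearest the window centre, at -2.06 kb, and it lay over 5 kb from any ESC peak. On that chromosome the nearest 24 h peak was 20.3 Mb from these peaks. With 133 peaks over the genome, the 24 h list leaves wide gaps in general, and signal below its calling limit does not show in it.

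ESC binding at Id2 was called at 4 sites in both media, spread over 70.2 kb. The order of the sites differed between the lists. In LIF+BMP-4 the highest was at 25739751 to 25740177 (score 151.82, percentile 88.0), which in LIF+serum, at 25739713 to 25740190, was the lowest of the window (score 54.69, percentile 16.2). In LIF+serum the highest was at 25768140 to 25769469 (score 131.39, percentile 87.6), and in LIF+BMP-4 that site, at 25768491 to 25768924, ranked 3 of 5 (score 107.53, percentile 74.5). The site at 25809283 to 25809856 in LIF+BMP-4 (score 132.4, percentile 83.5) and at 25809152 to 25809958 in LIF+serum (score 85.63, percentile 66.9) was second in each. A weak LIF+BMP-4 peak followed 499 bp beyond it, at 25810356 to 25810677 (score 62.05), and a LIF+serum peak at 25758611 to 25759722 (score 80.99) had no counterpart. The protein-coding neighbours of Id2 in the RefSeq table are Kidins220 and Rnf144a, and distance alone does not assign the peaks of this window to Id2.

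At Id4, the ESD-EpiSC site was not a called ESC site, which was the more common case in these lists. Over the whole lists, 27.1% of peaks at 24 h and 34.7% at 1.5 h overlapped an ESC peak. The Id4 site lay at -31.7 kb from the window centre. The 24 h peak, at 48323212 to 48323362, scored 94.65 (rank 12 of 133), and the 1.5 h peak, at 48323123 to 48323434, scored 361.77 (rank 5 of 225). The 24 h peak lay inside the 1.5 h peak, with midpoints 8.5 bp apart. No ESC peak was called within 8 kb: the nearest began 8402 bp beyond the 1.5 h peak in LIF+BMP-4 and 8323 bp beyond it in LIF+serum. This was the highest-ranked 1.5 h peak of the 3 windows.

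Of the 3 genes, Id4 had the widest spread of ESC sites called in both media, spanning 144.9 kb. The highest in each list lay almost 65 kb above the centre, at 48419429 to 48420080 in LIF+BMP-4 (score 218.5, rank 738) and at 48419343 to 48420226 in LIF+serum (score 112.06, rank 1663). The other shared sites lay below the centre. One was at 48275611 to 48276155 in LIF+BMP-4 (percentile 71.5) and at 48275303 to 48276136 in LIF+serum (percentile 51.3). The other was at 48331837 to 48332395 in LIF+BMP-4 (percentile 51.4) and at 48331758 to 48332568 in LIF+serum (percentile 34.6).

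Near the Id4 window centre, peaks were called in LIF+serum alone. They lay at 48349137 to 48350549, the widest member at 1413 bp (score 93.17, percentile 72.7), and at 48347656 to 48348256 (score 53.63, percentile 12.7). The nearest LIF+BMP-4 peak was 16741 bp from the first and 15260 bp from the second. LIF+serum had a further unshared peak at 48266712 to 48267590 (percentile 55.8), and LIF+BMP-4 had unshared peaks at 48259874 to 48260213 (percentile 16.8) and 48303158 to 48303482 (percentile 24.0). The protein-coding neighbours of Id4 in the RefSeq table are Rnf144b and Zfp169, and distance alone does not assign the peaks of this window to Id4.

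Across the 3 genes, 10 of 21 ESC regions were common to the media, 5 were called in LIF+BMP-4 alone and 6 in LIF+serum alone. The shares over all ESC regions of the series were not computed, so only the peak counts below have a background. The shared regions numbered 4 at Id2, 3 at Id3 and 3 at Id4. Of the LIF+BMP-4 peaks, 10 of 15 (66.7%, exact Clopper-Pearson 95% interval 38.4 to 88.2) overlapped a LIF+serum peak, beside 38.7% of the whole list. Of the LIF+serum peaks, 10 of 16 (62.5%, 35.4 to 84.8) overlapped a LIF+BMP-4 peak, beside 58.8% of the whole list. The second share was near its background, and the interval of the first reached down to its own. These intervals cover counting error over a few peaks only. Among unshared peaks, 5 of 5 for LIF+BMP-4 and 3 of 6 for LIF+serum stood below percentile 40 of their list, a limit chosen after the values were seen. Over the whole lists, 52.1% of 9013 unshared LIF+BMP-4 peaks and 57.4% of 3870 unshared LIF+serum peaks did.

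The 10 shared ESC sites were placed closely and ranked loosely. The midpoints of paired peaks were a median of 38.5 bp apart, with a range of 9.5 to 163.5 bp, beside a median of 70.5 bp over all 5330 one-to-one pairs of the ESC lists. The percentiles that a site held in the LIF+BMP-4 list and the LIF+serum list differed by a median of 18.5 points, close to the 18.8 points over all such pairs. The Id2 site at -40 kb (percentile 88.0 for LIF+BMP-4 against 16.2 for LIF+serum) and the Id3 site at -3.53 kb (percentile 15.9 for LIF+BMP-4 against 92.1 for LIF+serum) stood farthest apart, in opposite directions. Pairs more than 30 points apart made up 2 of 10 at the Id loci (20%), beside 32.6% of all one-to-one pairs. Differences above 30 points were thus common, but the share of all pairs as far apart as these 2 sites was not computed. Because score depends on depth and control, these percentiles do not measure a change in occupancy.

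**Figure D4:**
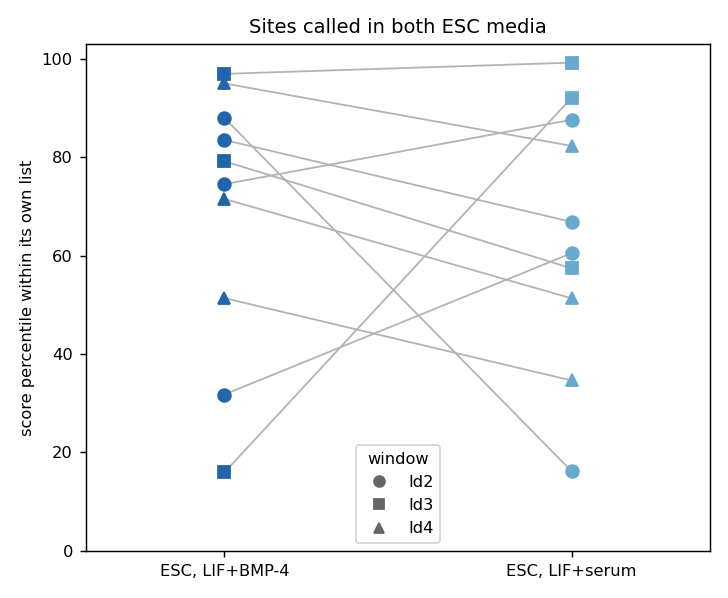
Score percentile of each of the 10 Id sites called in both ESC media, with LIF+BMP-4 on the left and LIF+serum on the right and a line joining the peaks of a site; symbols give the window. The lines of an Id2 site (88.0 and 16.2) and an Id3 site (15.9 and 92.1) cross steeply, and the top Id3 site was high in both lists (96.9 and 99.2).

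Between the ESD-EpiSC times, all 3 of the 24 h peaks in the windows overlapped a 1.5 h peak (100%, 29.2 to 100), beside 12.8% of the 24 h list. Of these, 2 met the same 1.5 h peak at Id3 and are not separate trials. Conversely, 2 of 7 peaks at 1.5 h overlapped a 24 h peak (28.6%, 3.67 to 71.0), beside 7.11% of the 1.5 h list. The 24 h peaks stood for 2 sites only, at Id3 and Id4, and the 1.5 h peaks for 6. The 4 regions called at 1.5 h and not at 24 h lay at Id2 and Id3. ESC peaks lay under 2 of the 3 peaks at 24 h (66.7%, 9.43 to 99.2), beside 27.1% of the 24 h list. They lay under 4 of the 7 peaks at 1.5 h (57.1%, 18.4 to 90.1), beside 34.7% of the 1.5 h list. Counts this small leave intervals that hold the background share of ESC overlap. The intervals also treat neighbouring peaks of 1 site, at Id3 for 24 h and at Id2 for 1.5 h, as separate. Counted as merged regions over both times, 3 of 6 ESD-EpiSC regions held an ESC peak. The share over all ESD-EpiSC regions of the series was not computed.

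The ESD-EpiSC peaks at these genes were mostly high in their own lists. In the windows, 1 of 3 peaks at 24 h and 4 of 7 at 1.5 h scored 100 or more, beside 7.52% of the 24 h list and 19.6% of the 1.5 h list. In ESCs this score was reached by 7 of 15 LIF+BMP-4 peaks and 4 of 16 LIF+serum peaks, beside 29.7% of the LIF+BMP-4 list and 23.1% of the LIF+serum list. The median percentile of the members was 91.7 at 24 h, 87.6 at 1.5 h, 51.4 for LIF+BMP-4 and 59.0 for LIF+serum, where 50 is the middle of any list. Member widths had medians of 151 bp at 24 h and 169 bp at 1.5 h, and of 453 bp for LIF+BMP-4 and 906.5 bp for LIF+serum. Over the whole lists the medians were 102 bp at 24 h, 123 bp at 1.5 h, 500 bp for LIF+BMP-4 and 811 bp for LIF+serum, so ESD-EpiSC peaks were narrower than ESC peaks well beyond the Id genes.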

How the data were processed

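Per the labels' protocols, formaldehyde-fixed chromatin was sonicated and precipitated with an anti-Smad1 antibody. Tools listed in the submitters' processing notes are MACS 1.4.2, Bowtie 1.1.0 and Picard, with mm9 as the build and no role or order given. The authors deposited 1 peak list for each of 4 libraries, with chromosome, start, end, name and a score per peak. No source states the scale of the deposited score, whose lowest value was 50.0 to 50.2 per list. MACS usually writes a scaled −log10 p-value there. Input libraries (2) were not analysed here. Depth, read filters and controls were not given in the sources used here.

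Groups follow the labels. Peaks overlapping by at least 1 bp counted as shared, and overlapping or touching peaks were merged into regions. Tiles of 200 kb ran from the first base of chromosomes 1 to 19 and X to the last peak, and a peak counted in each tile it met. Positions are 1-based. The rule for named positions took ESD-EpiSC peaks with the ESC peaks they meet, regions shared by both ESC media, the 3 highest ESC peaks per list and window, and the ESC peak nearest each centre; the few other peaks of the windows were added. The code (Python 3.11.15, numpy 2.4.6, pandas 2.3.3, scipy 1.17.1, matplotlib 3.10.9) was tested on simulated data. Alternatives were a score of at least 100, windows of 100 and 400 kb, overlap of 50% of the shorter peak, extension by 1 kb, lists of equal length, leaving out ESD-EpiSC peaks up to 80 bp wide, and tile borders moved by 100 kb. The members and lists were chosen with earlier results of these data known.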

Additional observations from a re-analysis of the deposited data

How the results depend on the processing

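No paired analysis was possible because no condition had a second library. Requiring a score of 100 or more left 1 peak at 24 h, 4 at 1.5 h, 7 LIF+BMP-4 peaks and 4 LIF+serum peaks. It left 1 region in both ESC media at each of Id2, Id3 and Id4, and 1 ESD-EpiSC peak on an ESC peak at each time. Lists of equal length (133 peaks each) left 3 peaks at 24 h, 5 at 1.5 h, 0 for LIF+BMP-4 and 1 for LIF+serum. The order of the sums by cell state turned, without a background share under this cut. With ESC lists cut to the length of the ESD-EpiSC list compared, 0 ESD-EpiSC peaks met an ESC peak at 24 h and 0 at 1.5 h. These losses follow from fewer peaks in each list. Without ESD-EpiSC peaks of 80 bp or less, 1 peak at 24 h met an ESC peak, and in the central 100 kb Id4 kept 1 region in both media, 1 LIF+BMP-4 peak and 3 LIF+serum peaks. Windows of 400 kb added no ESD-EpiSC peak and brought the ESC sums to 18 (LIF+BMP-4) and 19 (LIF+serum). Extension by 1 kb put 5 peaks at 1.5 h on an ESC peak. Of the recomputed sums over the windows, shared counts and tile shares, 41 stayed within 1.5 times (for tile shares, the 95% interval) and 15 did not. Of the recomputed counts per window and list, 36 did and 18 did not. Depth is unknown, so what a missing call means cannot be given.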
